A study of Mus musculus with 4 samples.

Results

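The 36 genes described here encode the enzymes and transporters of glycolysis, lactate export and glycogen turnover, together with genes of the cellular response to low oxygen. They were given as a list of symbols, chosen with earlier results of these data known, and were looked up among the 32285 genes of the deposited matrices, where all 36 were found. Their RNA was counted with 10x Visium in 4 mouse tissue sections. Visium is a method that captures the 3' ends of transcripts on a slide of barcoded spots, each covering a small patch of tissue with several cells. Each RNA molecule is counted once through a unique molecular identifier (UMI). The sections were unwounded facial skin, facial skin at postoperative day 4, unwounded oral mucosa and oral mucosa at postoperative day 4, with 1 section per group. The labels give every sample as wildtype and flash-frozen. They give no strain, age or wounding procedure. The question asked of these genes was how their levels differed between the tissues and with wounding, and how the muscle isoforms compared with the general ones. With 1 section in each group there is no spread between animals and no test was made; every interval below is a 95% interval that covers counting error only.

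Glycolysis splits glucose into pyruvate and yields ATP without oxygen; pyruvate is then burned in mitochondria or reduced to lactate and exported. Several steps are encoded by paralogous genes, one of which is the main form in skeletal muscle (Pfkm, Pgam2, Eno3 and the insulin-responsive glucose transporter Slc2a4), while others serve most other cells (Pfkl, Pfkp, Pgam1, Eno1, Slc2a1). Muscle also stores glycogen, which Gys1 builds and Pygm breaks down. When oxygen is short, the transcription factor HIF1A escapes prolyl hydroxylation and degradation, pairs with ARNT and binds a short core motif at genes for glycolysis, glucose uptake, mitophagy and vessel growth. HIF1A is controlled mainly as a protein, so the level of Hif1a RNA is a different quantity from the activity of the pathway.

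The windows of 250 bases before the annotated transcription starts show the sequence context of these genes (RefSeq, mouse build GRCm38.p6; 33 of the 36 genes had at least 1 window, 46 windows in all). They were searched on both strands for the core of the HIF binding motif, written ACGTG or GCGTG, and for the E-box CAGCTG, which is read by myogenic factors among others. A core was present in 37 of the 46 windows (80.4%), against 38.6% of the 32851 windows of all genes. The windows of the listed genes were also richer in G and C (median 60.2% against 52.4%), which the motif letters share. CAGCTG was present in 21.7% of the windows against 13.0% of all, and the TATA box letters TATAAA in 0 of 46 against 12.4% of all. A match describes these letters in this window and is not a measured binding site. The 6 sequences below belong to genes the results turn on: a muscle and a general isoform of the same enzyme, the muscle-type bisphosphatase that did not follow muscle, a mitophagy receptor, the lactate exporter and a HIF prolyl hydroxylase gene. Each is printed from 5' to 3' on the strand of its gene, with the motif matches on either strand in capitals and overlapping matches in 1 run.
Pgam2, chr11:5803797-5804046, minus strand: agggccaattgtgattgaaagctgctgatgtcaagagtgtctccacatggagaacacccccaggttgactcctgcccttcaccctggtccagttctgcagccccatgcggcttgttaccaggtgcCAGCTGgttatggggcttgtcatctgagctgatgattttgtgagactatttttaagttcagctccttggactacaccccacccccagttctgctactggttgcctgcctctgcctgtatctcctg
Pgam1, chr19:41911621-41911870, plus strand: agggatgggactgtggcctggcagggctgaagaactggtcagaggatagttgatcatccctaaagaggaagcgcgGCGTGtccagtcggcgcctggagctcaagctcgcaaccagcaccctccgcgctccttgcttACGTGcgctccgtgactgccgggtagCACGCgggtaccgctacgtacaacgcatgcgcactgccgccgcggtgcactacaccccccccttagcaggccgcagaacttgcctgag
Fbp2, chr13:62858401-62858650, minus strand: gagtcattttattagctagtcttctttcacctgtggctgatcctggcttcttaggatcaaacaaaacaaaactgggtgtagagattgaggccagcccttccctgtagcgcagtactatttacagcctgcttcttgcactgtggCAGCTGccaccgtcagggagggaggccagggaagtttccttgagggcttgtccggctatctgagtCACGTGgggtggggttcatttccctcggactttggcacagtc
Bnip3, chr7:138909507-138909756, minus strand: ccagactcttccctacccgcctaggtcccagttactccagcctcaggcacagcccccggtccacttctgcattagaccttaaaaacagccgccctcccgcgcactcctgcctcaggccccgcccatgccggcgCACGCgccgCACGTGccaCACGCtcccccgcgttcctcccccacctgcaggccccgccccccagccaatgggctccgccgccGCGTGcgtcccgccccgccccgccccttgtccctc
Slc16a3, chr11:120948817-120949066, plus strand: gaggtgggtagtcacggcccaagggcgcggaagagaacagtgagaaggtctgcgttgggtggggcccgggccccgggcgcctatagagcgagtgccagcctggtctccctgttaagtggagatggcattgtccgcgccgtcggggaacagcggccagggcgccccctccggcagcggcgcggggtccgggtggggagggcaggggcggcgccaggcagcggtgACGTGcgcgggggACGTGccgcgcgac
Egln3, chr12:54203875-54204124, minus strand: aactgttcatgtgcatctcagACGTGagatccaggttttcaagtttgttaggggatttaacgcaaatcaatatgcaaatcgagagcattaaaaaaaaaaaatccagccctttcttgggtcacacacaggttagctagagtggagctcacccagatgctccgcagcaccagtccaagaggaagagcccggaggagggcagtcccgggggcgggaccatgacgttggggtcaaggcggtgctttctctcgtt
The Pgam2 window held 1 CAGCTG at position -125, counted from the start, and no core match. The Pgam1 window held 3 core matches, at -175, -114 and -88. The Fbp2 window held core matches at -42 and -41, which are both strands of 1 palindrome CACGTG, and CAGCTG at -107. The Bnip3 window held 5 core matches, at -117, -108, -107, -99 and -35, of which -108 and -107 are likewise both strands of 1 palindrome CACGTG. The start used for Slc16a3 lies inside the annotated span of the gene (120948484 to 120959000 on chromosome 11), and its window held cores at -27 and -14. The Egln3 window held 1 core at -229.

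The sections differed in ways that touch every value below. They held 430 to 1288 tissue spots and 3004174 to 11939479 UMIs, and the median spot of unwounded mucosa had 98 UMIs against 5372 to 16128 in the other sections. Mitochondrial genes took 2.71% of UMIs in unwounded skin, 2.75% in day 4 skin, 20.8% in unwounded mucosa and 11.9% in day 4 mucosa. Salivary gland markers took 0.00254% in unwounded and 0.382% in day 4 mucosa. Keratins matched the labelled tissues: Krt13, of the oral suprabasal layer, was at 27097 and 18364 CPM (UMIs scaled to a section total of 1000000) in the mucosa sections and 2.26 and 0.604 in skin, and Krt1, of the epidermal suprabasal layer, at 7043 and 13119 CPM in skin and 4.67 and 3.66 in mucosa. The 12 skeletal muscle markers took 6.81% of all UMIs in unwounded mucosa, 5.55% in day 4 mucosa, 0.136% in unwounded skin and 0.112% in day 4 skin. The neutrophil markers went against the wound labels in skin: the 10 genes, all detected in each section, took 0.618% of UMIs in the section labelled unwounded facial skin, 0.0296% in day 4 skin, 0.00409% in unwounded mucosa and 0.384% in day 4 mucosa. S100a8 and S100a9 gave 36155 and 32793 of the 73786 neutrophil marker UMIs in unwounded skin. In day 4 mucosa they gave 5263 and 5696 of 11528. The share, and the spots chosen by it below, thus follow mostly these genes. Between the day 4 sections, Cxcr2 and Il1r2 went against the list, at 10.3 and 42.0 CPM in skin and 6.99 and 18.3 in mucosa, and the other markers went with it. The stress keratinocyte markers had the same order in skin, at 0.991% in unwounded and 0.532% in day 4 skin, and were at 0.469% in unwounded and 0.738% in day 4 mucosa. The regenerating muscle markers, in contrast, were higher in both day 4 sections, at 0.000469% in unwounded skin, 0.00711% in day 4 skin, 0.0433% in unwounded mucosa and 0.158% in day 4 mucosa. The Y-linked gene Ddx3y was at 49.2 and 38.4 CPM in the unwounded skin and mucosa sections and had 0 UMIs in the day 4 ones, which allows up to 0.302 and 0.999 CPM, while Xist had 909 and 84 UMIs in the day 4 sections and 1 and 0 in the unwounded ones, so each wound comparison is also one between sections that differ in these genes. Wounding and the sex difference that these genes mark cannot be told apart in either tissue. Between 46 and 347 spot barcodes were shared by pairs of sections. Every slide carries the same array barcodes, so a shared barcode does not link sections. In such sections, fewer cells of a type and less RNA per cell cannot be told apart.

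A gene counted as measured in a comparison with 20 or more UMIs summed over its sections. It was called higher or lower when the CPM values were 1.5-fold or more apart and their Poisson intervals were separate. At day 4 against unwounded facial skin, 1 of 35 measured members was higher and 3 were lower, where 6.09% of all 14231 measured genes were higher and 8.59% lower. At day 4 against unwounded oral mucosa, 4 of 36 were higher and 12 lower, against 20.6% and 3.56% of all genes. In unwounded oral mucosa against unwounded facial skin, 16 of 36 were higher and 13 lower, against 10.1% and 59.7% of all genes. In day 4 mucosa against day 4 skin, 14 were higher and 7 lower, against 11.5% and 35.5%. The median log2 ratio of the members was -0.19 in the skin wound comparison (all genes -0.05), -0.25 in the mucosa wound comparison (all genes 0.29), 0.26 between the unwounded tissues (all genes -0.93) and 0.32 between the day 4 tissues (all genes -0.48). With TMM scaling, which centres most genes near 0, the counts became 1 higher and 3 lower, 2 and 17, 19 and 5, and 20 and 3 in the same order. The share higher among called members went from 25% to 10.5% in the mucosa wound comparison, from 55.2% to 79.2% between unwounded tissues and from 66.7% to 87.0% between day 4 tissues. TMM shifts the ratios of all genes alike, and the share of all genes called with it was not counted, so these counts have no background. With TMM the median log2 ratios of the members were -0.13, -0.58, 1.02 and 0.68 in the same order. Those of all genes were 0.02, -0.04, -0.17 and -0.12. Over the alternatives that changed the scaling or the spots used, left-out parts of a section included, 3 of the 4 skin wound calls were kept (Ndrg1, Slc16a3 and Slc2a3), 3 of the 16 mucosa wound calls (Hif1a, Pfkm and Ppp1r3c), 12 of the 29 between unwounded tissues and 10 of the 21 between day 4 tissues. Parts 1 and 2 of unwounded mucosa held too few UMIs to change a count, so leaving them out was no check. Leaving out the spots with at least 0.5% neutrophil markers alone ended 10 of the 16 mucosa wound calls, among them those of Pgam2 (log2 -0.54), Eno3 (-0.37), Slc2a4 (-0.31), Pygm (-0.54) and Gys1 (-0.56). The 4 comparisons share sections and are not independent of each other.

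**Figure D1:**
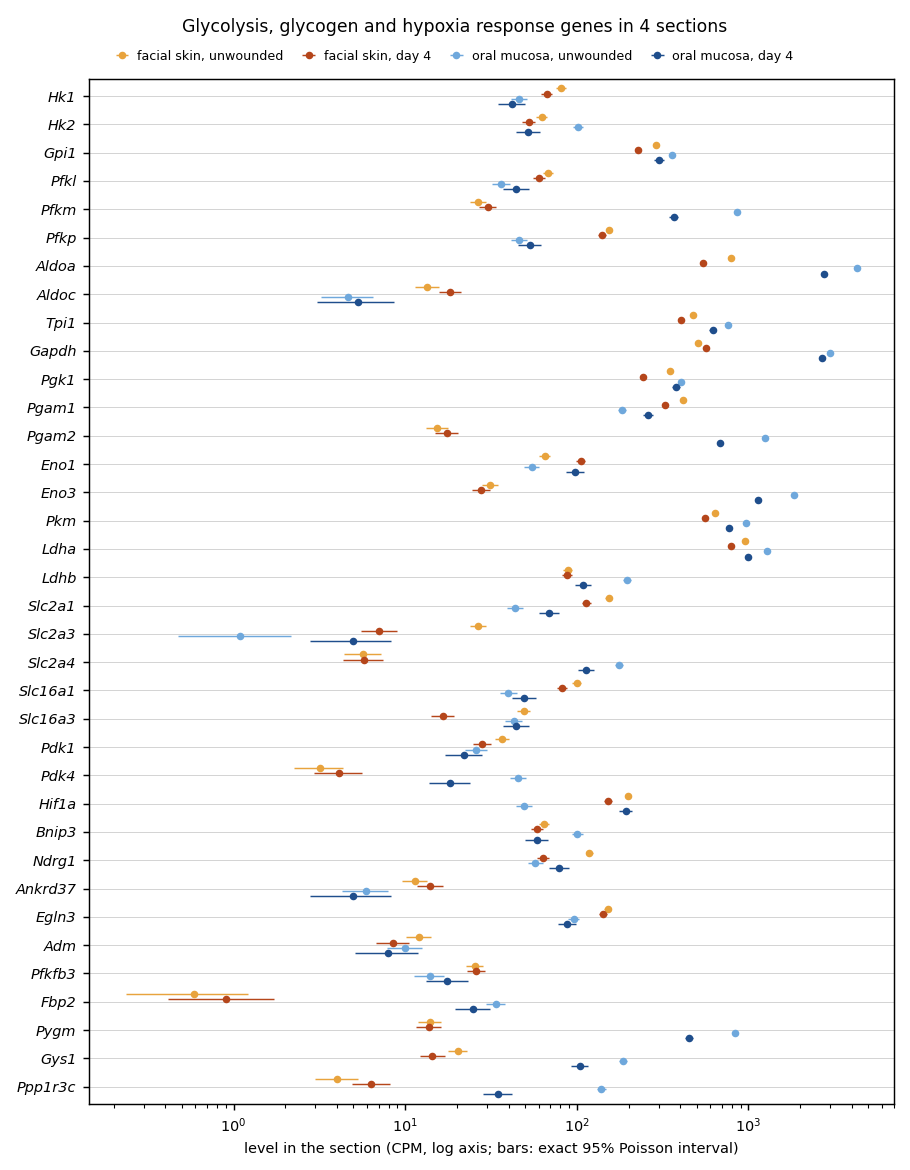
Level of each of the 36 members in the 4 sections, in CPM on a log axis, with exact 95% Poisson intervals as bars. The muscle isoforms Pgam2, Eno3, Pfkm and Pygm lie between 367 and 1837 CPM in the mucosa sections and between 13.7 and 31.2 CPM in the skin sections.

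Glucose enters cells through the transporters of the Slc2a family. Slc2a1, a general transporter of epithelia among other tissues, was at 153 CPM in unwounded skin, 113 in day 4 skin, 43.7 in unwounded mucosa and 68.9 in day 4 mucosa. It was highest in the 2 skin sections, and the 4 Poisson intervals did not overlap. Its lower call in day 4 mucosa against day 4 skin turned to a ratio of 0.015 over spots with under 1% muscle markers. Day 4 mucosa was higher than unwounded mucosa by 0.66 on the log2 scale (0.40 to 0.92), a call that was lost with TMM scaling (0.32) and without the spots holding at least 0.5% neutrophil markers (0.19). Slc2a3, a high-affinity transporter found in neurons and white blood cells, was at 26.6 CPM in unwounded skin, 7.05 in day 4 skin, 1.10 in unwounded mucosa and 4.99 in day 4 mucosa, from 318, 70, 8 and 15 UMIs. The section labelled unwounded skin stood far above the others, the day 4 sections had overlapping intervals and unwounded mucosa was the lowest, so the wound ratios had opposite signs: 3.78-fold lower in day 4 skin (log2 -1.92, -2.31 to -1.54) and 4.55-fold higher in day 4 mucosa (log2 2.18, 0.86 to 3.63). Without the spots at or above 0.5% neutrophil markers (162, 3, 0 and 89 spots in the order given) the ratios were -1.14 in skin, which kept the call, and 1.43 in mucosa, which lost it. With the unwounded skin section cut into 4 parts, 1 part stood at 52.2 CPM and the other 3 between 9.51 and 18.3, and the log2 ratio without that part was -0.79.

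Slc2a4, the transporter that insulin brings to the surface of muscle and fat cells, had 5.70 CPM in unwounded skin, 5.74 in day 4 skin, 176 in unwounded mucosa and 113 in day 4 mucosa. It was low in both skin sections, whose intervals overlapped, and 30.9-fold higher in unwounded mucosa than in unwounded skin. Lactate leaves and enters cells through the Slc16a transporters. Slc16a1, which works in both directions in most tissues, was at 99.9 CPM in unwounded skin, 81.7 in day 4 skin, 39.9 in unwounded mucosa and 49.3 in day 4 mucosa and was called lower in mucosa at both times, though neither call held with TMM scaling. Slc16a3, the exporter of strongly glycolytic cells, was at 49.0 CPM in unwounded skin, 16.6 in day 4 skin, 43.0 in unwounded mucosa and 44.3 in day 4 mucosa. Day 4 skin alone was low, and the other 3 sections lay within overlapping intervals: day 4 skin was 2.95-fold lower than unwounded skin (log2 -1.56, -1.82 to -1.31; -0.90 without the neutrophil marker spots) and day 4 mucosa was higher than day 4 skin by 1.41 (1.07 to 1.75).

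The first steps of glycolysis trap and rearrange glucose. Hk1, the constitutive hexokinase, was at 80.7 CPM in unwounded skin, 66.7 in day 4 skin, 46.0 in unwounded mucosa and 41.9 in day 4 mucosa and was called lower in mucosa at both times, calls that were lost with TMM scaling and turned sign over spots with under 1% muscle markers (0.23 and 0.029). Hk2, the inducible hexokinase of muscle and growing cells, was at 62.6 CPM in unwounded skin, 52.3 in day 4 skin, 102 in unwounded mucosa and 51.9 in day 4 mucosa. Unwounded mucosa was the high section and day 4 mucosa overlapped with both skin sections, so that Hk2 was called lower at day 4 in mucosa (log2 -0.97, -1.23 to -0.72). Over spots with under 1% muscle markers that ratio was 0.0098, and the ratio between the unwounded tissues turned to -1.02. Gpi1, glucose-6-phosphate isomerase, lay between 227 and 360.2 CPM and was called in no comparison. Among the phosphofructokinases, which commit sugar to glycolysis, Pfkl was at 68.1 CPM in unwounded skin, 60.6 in day 4 skin, 36.4 in unwounded mucosa and 44.3 in day 4 mucosa. Pfkp was at 154 CPM in unwounded skin, 139 in day 4 skin, 46.1 in unwounded mucosa and 53.3 in day 4 mucosa. Both were lower in unwounded mucosa than in unwounded skin, with log2 ratios of -1.74 for Pfkp and -0.90 for Pfkl, the second of which lost its call with TMM scaling and was 0.036 over spots with under 1% muscle markers. Pfkm, the muscle form, went the other way: it was at 26.6 CPM in unwounded skin, 30.4 in day 4 skin, 860.4 in unwounded mucosa and 367 in day 4 mucosa. The mucosa sections stood far above the skin sections, with a log2 ratio of 5.02 (4.86 to 5.19) unwounded and 3.60 (3.41 to 3.78) at day 4, and the skin sections had overlapping intervals. Day 4 mucosa was below unwounded mucosa by 1.23 on the log2 scale (-1.32 to -1.13), a ratio that was -0.74 without 1 of the 4 parts of the day 4 section and -2.64 without another.

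Of the enzymes that split and oxidise the sugar, Aldoa, the aldolase of muscle and most tissues, was at 789 CPM in unwounded skin, 545 in day 4 skin, 4285 in unwounded mucosa and 2751 in day 4 mucosa. Its symbol stands for 2 identifiers in the annotation, of which one held all 54320 UMIs and the other 0. The skin sections were the low ones and unwounded mucosa the highest, so Aldoa was called higher in mucosa at both times and lower at day 4 in mucosa (-0.64, -0.67 to -0.60; -0.39 and not called without the neutrophil marker spots). Aldoc, the aldolase of the nervous system, was at 13.5 CPM in unwounded skin, 18.3 in day 4 skin, 4.67 in unwounded mucosa and 5.33 in day 4 mucosa and was lower in mucosa at both times. Tpi1, triose phosphate isomerase, ranged from 404 to 756 CPM and was called higher in mucosa at both times (0.68 and 0.61), with both ratios at -0.12 over spots with under 1% muscle markers. Gapdh, the dehydrogenase often used as a reference gene, stood at 511 CPM in unwounded skin, 563 in day 4 skin, 2996 in unwounded mucosa and 2687 in day 4 mucosa, so 2 low skin sections faced 2 high mucosa sections with log2 ratios of 2.55 unwounded and 2.26 at day 4. Pgk1, phosphoglycerate kinase, ranged from 244 to 402 CPM and was called only between the day 4 tissues (0.63).

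Among the enzymes of glycolysis, the mutase and enolase steps held the widest gaps between the tissues. Pgam1, the general phosphoglycerate mutase, was at 414 CPM in unwounded skin, 325 in day 4 skin, 183 in unwounded mucosa and 260.0 in day 4 mucosa, with both mucosa sections below both skin sections and a call between the unwounded tissues that was lost with TMM scaling. Pgam2, the muscle mutase, was at 15.3 CPM in unwounded skin, 17.4 in day 4 skin, 1246 in unwounded mucosa and 684 in day 4 mucosa. Its mucosa sections were 81.3-fold (unwounded) and 39.3-fold (day 4) above the skin sections, whose own intervals overlapped. Eno3, the muscle enolase, was at 31.2 CPM in unwounded skin, 27.6 in day 4 skin, 1837 in unwounded mucosa and 1141 in day 4 mucosa, 58.8-fold and 41.4-fold above skin in the same order. Eno1, the general enolase, was the single member called higher at day 4 in both tissues. It was at 65.0 CPM in unwounded skin, 105 in day 4 skin, 54.5 in unwounded mucosa and 97.5 in day 4 mucosa, with a log2 ratio of 0.69 in skin (0.56 to 0.83) and 0.84 in mucosa (0.62 to 1.06). The day 4 sections were the high ones and their intervals overlapped, but neither call held throughout. The skin ratio was 0.43, and not called, without 1 of the 4 parts of the day 4 section. The mucosa call was lost with TMM scaling (0.50) and without the neutrophil marker spots (0.30), and the ratio was -0.08 without 1 of the 4 parts of the day 4 section. Eno1b, a near-identical copy of Eno1, held 286, 228, 50 and 57 UMIs, and the counting could have split reads between the copies, so the level of Eno1 is uncertain. At the end of the pathway, Pkm, pyruvate kinase, ranged from 558 to 971 CPM and Ldha, which makes lactate, from 796 to 1281 CPM. Ldha was called in no comparison and Pkm only between the unwounded tissues (0.61). Ldhb, the lactate dehydrogenase of oxidative tissue, was at 88.5 CPM in unwounded skin, 87.6 in day 4 skin, 196 in unwounded mucosa and 109 in day 4 mucosa. Unwounded mucosa was the high section, and day 4 mucosa was lower by 0.85 on the log2 scale (-1.03 to -0.68). Over spots with under 1% muscle markers the sign turned, to 0.45 for day 4 against unwounded mucosa and to -1.92 between the unwounded tissues.

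The share of the muscle isoforms within their own families was set out for each section, since a share inside 1 library does not depend on the scaling of the section. The UMIs of Pfkm, Pgam2, Eno3 and Slc2a4 were divided by those plus the UMIs of Pfkl, Pfkp, Pgam1, Eno1, Slc2a1 and Slc2a3. Counts of 3' ends do not grow with transcript length, but capture may differ between genes, so a share is compared between sections and not read as a ratio of proteins. The muscle isoforms took 8.21% (7.72 to 8.73) in unwounded skin, 9.76% (9.13 to 10.4) in day 4 skin, 91.9% (91.6 to 92.2) in unwounded mucosa and 81.3% (80.5 to 82.2) in day 4 mucosa. The mucosa sections were the high ones, day 4 stood below unwounded mucosa, and in skin day 4 stood slightly above unwounded. The 4 parts of a section spread far more than the counting intervals: leaving out each part in turn gave 3.76% to 11.9% in unwounded skin, 5.35% to 12.0% in day 4 skin, 86.8% to 94.2% in unwounded mucosa and 42.5% to 91.0% in day 4 mucosa. The parts held unequal numbers of UMIs, and parts 1 and 2 of unwounded mucosa held very few, so the spread there comes from the others.

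By family, in the same order of sections, Eno3 took 32.5%, 20.8%, 97.1% and 92.1% of enolase UMIs, a share that was 26.0%, 17.7%, 96.8% and 90.7% when Eno1b was added to Eno1. Pfkm took 10.7%, 13.2%, 91.3% and 79.0% of phosphofructokinase UMIs. Each of these families was mostly general in skin and mostly muscle-type in mucosa. Pgam2 took 3.57%, 5.09%, 87.2% and 72.5% of the mutase UMIs and Slc2a4 3.07%, 4.55%, 79.8% and 60.4% of the glucose transporter UMIs. Eno3 had the highest muscle share of the 4 families in every section, and Slc2a4 the lowest in each. Pygm, set against its general paralogs Pygb and Pygl, took 18.3%, 11.1%, 98.6% and 94.4%. In pairs that do not split cleanly by muscle, the share of Ldhb in the lactate dehydrogenases stayed between 8.46% and 13.3%, Hk2 took 43.7% to 68.9% of the 2 hexokinases, and Pdk4 took 7.95% to 63.8% of Pdk1 and Pdk4.

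**Figure D2:**
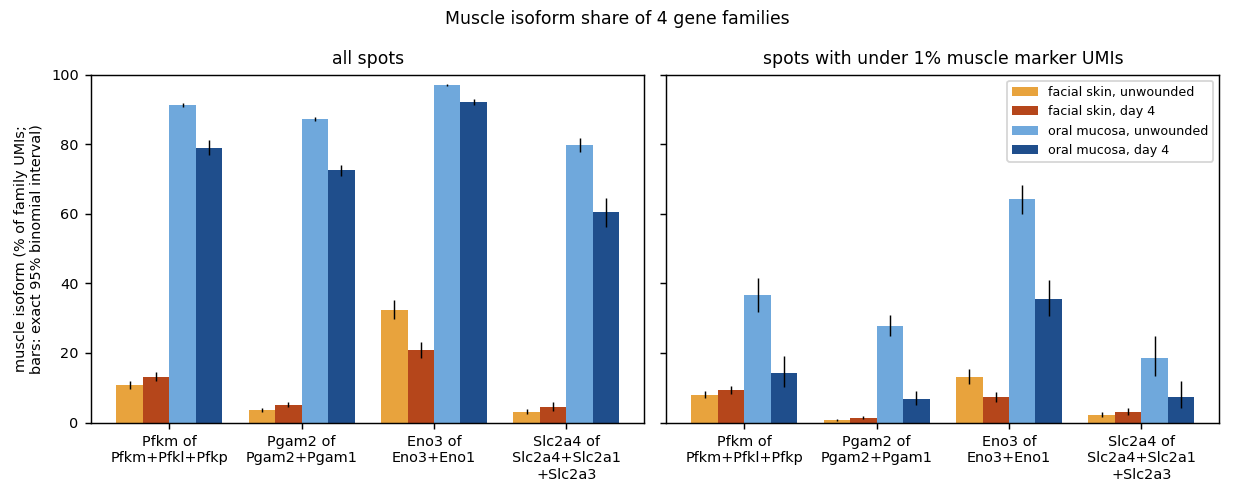
Share of the muscle isoform in the UMIs of 4 families in each section, in percent, over all spots and over muscle-poor spots (at least 1000 UMIs and under 1% muscle markers), with exact 95% binomial intervals as bars. Over all spots the mucosa bars reach 60.4% to 97.1% and the skin bars 3.07% to 32.5%; in muscle-poor spots of day 4 mucosa they reach 6.90% to 35.6%.

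The glycogen genes were among the members most unequal between the tissues. Pygm, muscle glycogen phosphorylase, was at 14.0 CPM in unwounded skin, 13.7 in day 4 skin, 831 in unwounded mucosa and 453 in day 4 mucosa, 59.4-fold higher in unwounded mucosa than in unwounded skin. Gys1, the glycogen synthase of muscle and most tissues, was at 20.3 CPM in unwounded skin, 14.4 in day 4 skin, 185 in unwounded mucosa and 104 in day 4 mucosa. For both, the mucosa sections were high, day 4 mucosa was below unwounded mucosa and the skin sections were low. Ppp1r3c, a subunit that brings protein phosphatase to glycogen and so favours its synthesis, was at 4.02 CPM in unwounded skin, 6.34 in day 4 skin, 139 in unwounded mucosa and 34.6 in day 4 mucosa. Its 4.01-fold lower level in day 4 mucosa (log2 -2.00, -2.31 to -1.71) was the lowest ratio among the members in that comparison, while in skin its ratio was 0.66 (0.09 to 1.23) and not called. Fbp2, the muscle-type fructose bisphosphatase that turns the phosphofructokinase step back toward glycogen, was at 0.586 CPM in unwounded skin, 0.906 in day 4 skin, 33.8 in unwounded mucosa and 25.0 in day 4 mucosa, from 7, 9, 246 and 75 UMIs. Its mucosa sections were 57.6-fold (unwounded) and 27.6-fold (day 4) above skin, and its skin wound ratio was not measured, as it fell under 20 UMIs. Pfkfb3, which makes the sugar phosphate that activates phosphofructokinase, ranged from 13.9 to 26.0 CPM and was called only between the unwounded tissues (-0.88), a call lost with TMM scaling.

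Pyruvate dehydrogenase kinases close the entry of pyruvate into mitochondria. Pdk1, a target of HIF1A, ranged from 22.0 to 36.9 CPM and was called in no comparison. Pdk4, the form that muscle raises in fasting, was at 3.18 CPM in unwounded skin, 4.13 in day 4 skin, 45.7 in unwounded mucosa and 18.3 in day 4 mucosa. Unwounded mucosa was the high section, the skin sections had overlapping intervals, and day 4 mucosa was lower than unwounded mucosa by 1.32 on the log2 scale (-1.76 to -0.90).

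Hif1a had the clearest wound ratio in mucosa. It was at 199.8 CPM in unwounded skin (192 to 208), 152 CPM in day 4 skin (144 to 159), 49.1 CPM in unwounded mucosa (44.2 to 54.5) and 192 CPM in day 4 mucosa (177 to 209). Unwounded mucosa was the single low section, and day 4 mucosa overlapped with unwounded skin: the log2 ratio was 1.97 (1.78 to 2.16, 3.92-fold) for day 4 against unwounded mucosa, -2.02 (-2.19 to -1.86) between unwounded tissues, and -0.40 for day 4 against unwounded skin, which was not called. Neutrophil markers (0.00409% of UMIs unwounded, 0.384% at day 4) and macrophage markers (0.0448% and 0.172%) moved with it in mucosa. So did basal keratinocyte markers (0.266% and 0.456%) and erythrocyte markers (0.421% and 1.89%). Fibroblast, stress keratinocyte, endothelial, salivary gland and regenerating muscle markers were higher at day 4 as well. Skeletal muscle, oral suprabasal, epidermal suprabasal and adipocyte markers were lower. Without the spots at or above 0.5% neutrophil markers the Hif1a ratio was 1.15, still called. The part of macrophages and of the other cell types in that ratio was not tested. Leaving out each of the 4 parts of either section gave 1.17 to 2.66, with the lowest and the highest from parts of the day 4 section.

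The other 5 genes listed for the hypoxia response had their own patterns. Bnip3, a receptor for the removal of mitochondria, was at 64.3 CPM in unwounded skin, 58.9 in day 4 skin, 101 in unwounded mucosa and 58.3 in day 4 mucosa, high in unwounded mucosa and lower at day 4 by 0.79 on the log2 scale (-1.04 to -0.55). Over spots with under 1% muscle markers the sign turned, to 0.45 for day 4 against unwounded mucosa and to -1.31 between the unwounded tissues. Ndrg1, a stress gene of differentiating epithelia, was at 118 CPM in unwounded skin, 63.3 in day 4 skin, 57.4 in unwounded mucosa and 78.9 in day 4 mucosa. The section labelled unwounded skin was the high one, and day 4 skin was lower by 0.90 on the log2 scale (-1.04 to -0.77; -0.60 and still called without the neutrophil marker spots). Egln3, one of the prolyl hydroxylases that mark HIF for degradation and itself induced by HIF, was at 151 CPM in unwounded skin, 142 in day 4 skin, 95.7 in unwounded mucosa and 88.2 in day 4 mucosa, with both mucosa sections below both skin sections and no wound difference called. With TMM scaling its ratio between unwounded tissues changed sign to 0.11, and that call was also lost without the neutrophil marker spots. Ankrd37, a small HIF target, lay between 4.99 and 14.0 CPM and Adm, the vasodilator peptide adrenomedullin, between 7.99 and 12.1 CPM. Ankrd37 was called lower in mucosa at both times, and Adm was called in no comparison.

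**Figure D3:**
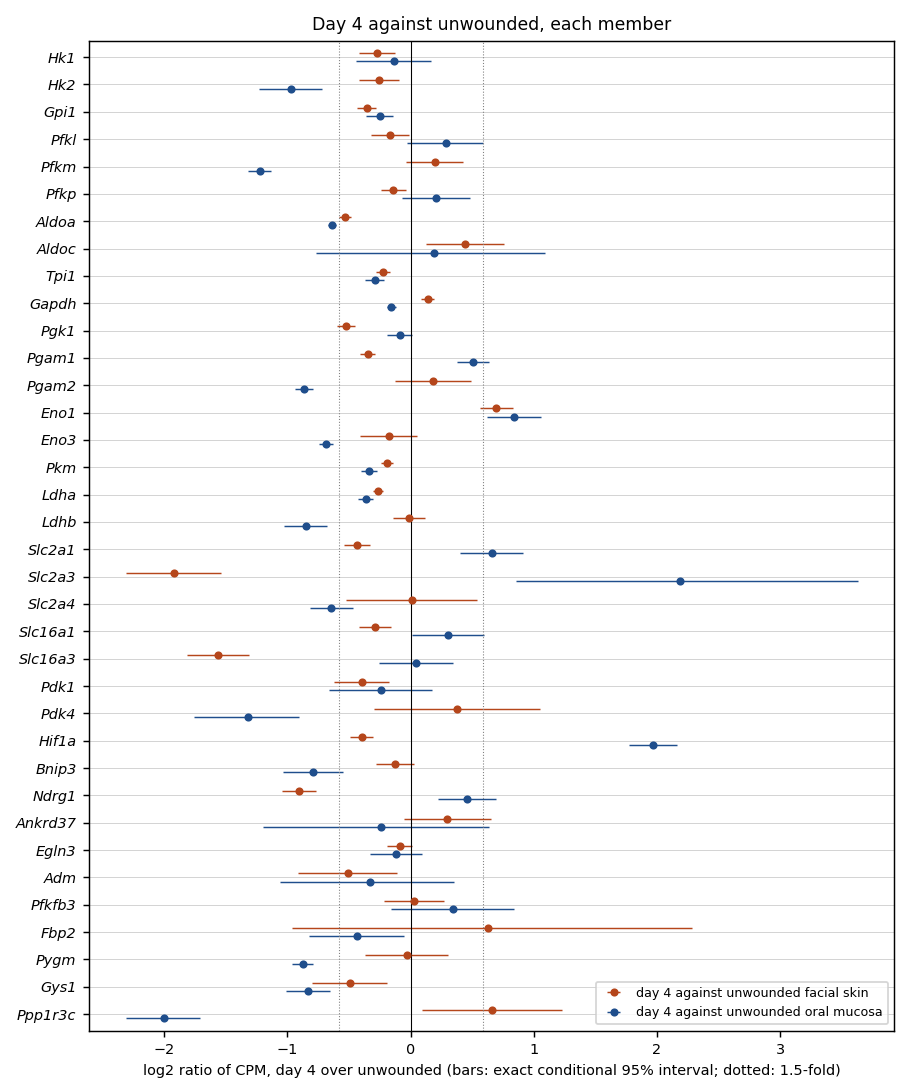
Log2 ratio of CPM at day 4 over unwounded for each member, in facial skin and in oral mucosa, with exact conditional 95% intervals as bars and dotted lines at 1.5-fold. Slc2a3 lies at -1.92 in skin and 2.18 in mucosa, Hif1a at -0.40 and 1.97, Ppp1r3c at 0.66 and -2.00, and Eno1 is to the right of the line in both.

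The difference between the tissues in their wound ratio was largest for Slc2a3, at 4.10 on the log2 scale (mucosa minus skin, 2.81 to 5.40). It was 2.37 for Hif1a (2.16 to 2.58), 1.60 for Slc16a3 (1.22 to 1.99) and -2.66 for Ppp1r3c (-3.28 to -2.05). These differences have no replicate check, and the section labelled unwounded skin, which held the most neutrophil marker UMIs, enters each of them.

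Muscle marker spots allowed the members to be set out within a section. Spots with at least 1000 UMIs were put in 3 classes by their share of muscle marker UMIs: muscle-poor (under 1%), intermediate (1% to 10%) and muscle-rich (at least 10%). Skin had no muscle-rich spot and 7 and 42 intermediate ones, unwounded mucosa had 94, 287 and 142 spots in the 3 classes, and day 4 mucosa 205, 66 and 94. None of the 36 genes is a marker that defined the classes, but spots are not replicates and the classes carry no test. In unwounded mucosa, 18 of 34 measured members were higher in muscle-rich than in muscle-poor spots and 10 were lower, where 12.3% of all genes were higher and 51.3% lower. In day 4 mucosa, 14 of 32 were higher and 9 lower, against 9.24% and 58.3% of all genes. The classes differ in more than muscle: oral suprabasal keratins took 9.44% of UMIs in the muscle-poor and 0.671% in the muscle-rich spots of unwounded mucosa, and 5.03% and 0.206% at day 4.

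The members called higher in the muscle-rich spots of both mucosa sections were Hk2, Pfkm, Aldoa, Tpi1, Gapdh, Pgam2, Eno3, Ldhb, Slc2a4, Slc16a3, Bnip3, Pygm, Gys1 and Ppp1r3c. Eno3 was at 2334 against 197 CPM in the muscle-rich against the muscle-poor spots of unwounded mucosa and at 2696 against 80.7 CPM at day 4. Pygm was at 1239 against 85.8 and 1068 against 21.5 CPM, and Aldoa at 5541 against 980.1 and 5542 against 789 CPM in the same order. In the muscle-poor spots Eno3 and Pygm were called lower at day 4 and Aldoa was not called. Hk2, at 124 against 30.4 and 82.9 against 29.6 CPM, and Slc16a3, at 61.3 against 8.94 and 68.8 against 30.3 CPM, showed the same order of classes. Pgk1, Pkm, Pdk4 and Pfkfb3 were called higher in the muscle-rich spots of unwounded mucosa only; the difference between the sections was not tested.

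Called lower in the muscle-rich spots of both sections were Hk1, Pfkl, Pfkp, Pgam1, Eno1, Slc2a1, Hif1a, Ndrg1 and Fbp2. Pgam1 was at 53.1 against 372 CPM in muscle-rich against muscle-poor spots of unwounded mucosa and 25.3 against 454 CPM at day 4. Slc2a1 was at 7.78 against 90.6 and 6.07 against 118 CPM and Hif1a at 14.6 against 88.2 and 21.2 against 331 CPM. For the mutase, enolase and phosphofructokinase steps, the muscle and the general paralogs were thus highest in different spots of the same section. Ldha, at 994 against 1069 and 995 against 1017 CPM, and Gpi1, at 345 against 247 and 323 against 251 CPM, were called in neither section. In muscle-rich spots the muscle isoforms took 98.0% of the UMIs of the 4 families in unwounded mucosa and 98.5% at day 4.

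Fbp2 stood apart from the other muscle-type genes. It was at 50.6, 37.5 and 15.1 CPM in the muscle-poor, intermediate and muscle-rich spots of unwounded mucosa and at 30.9, 30.1 and 10.1 CPM at day 4. Its level was thus lowest where the muscle markers were highest, in both sections. Within the muscle-poor spots of day 4 mucosa, the 20% of spots with the highest share of oral suprabasal keratins had 58.3 CPM and the others 9.58 CPM (38 against 8 UMIs; log2 2.61, 1.48 to 3.92), while in unwounded mucosa the values were 52.1 and 50.3 CPM. The rank correlation of Fbp2 with the oral suprabasal share was 0.37 over the 205 muscle-poor spots of day 4 mucosa, which share a library and neighbour each other. The keratin-rich spots were also deeper, with a median of 12305 against 3697 UMIs, and the part of depth in this correlation was not tested. In the muscle-poor spots of skin, Fbp2 was at 0.341 CPM unwounded and 0.622 CPM at day 4, and its companion gene Fbp1, the liver and kidney form, had 32 and 28 UMIs in the skin sections and 0 in both mucosa sections, which allows up to 0.412 CPM unwounded and 0.999 CPM at day 4.

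**Figure D4:**
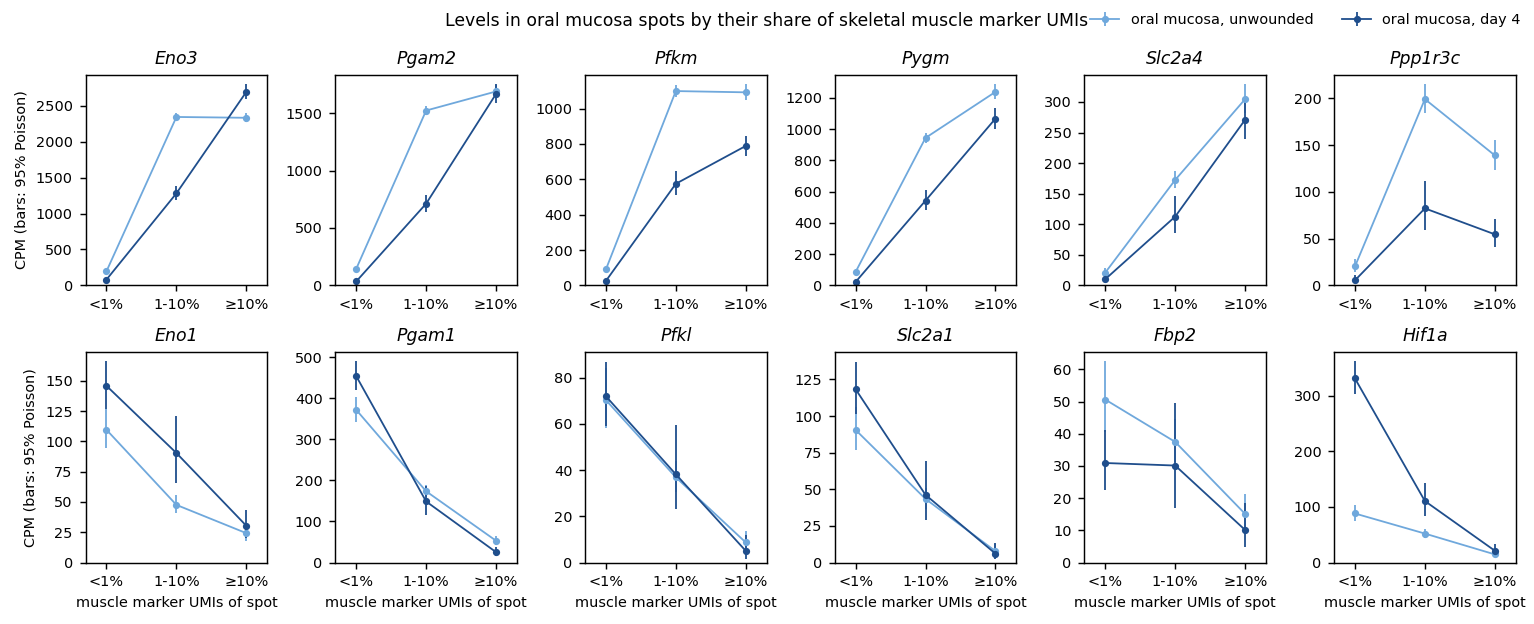
Level of 12 members in CPM, with 95% Poisson intervals, in the 3 classes of oral mucosa spots by muscle marker share, for the unwounded and the day 4 section. The upper genes are lowest in the class under 1%, Ppp1r3c peaks in the middle class at 199 and 82.4 CPM, and the lower genes, Fbp2 among them, are lowest in the class of at least 10%.

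Across all spots with at least 1000 UMIs (523 in unwounded and 365 in day 4 mucosa), the rank correlation with the muscle marker share was 0.74 and 0.80 for Pygm, 0.72 and 0.78 for Aldoa, 0.70 and 0.81 for Pgam2, 0.66 and 0.81 for Eno3 and 0.71 and 0.66 for Gapdh. It was -0.59 and -0.52 for Pgam1, -0.37 and -0.53 for Hif1a, and -0.07 and 0.04 for Ldha. These values are a description, since neighbouring spots share cells and all share a library and its depth.

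Within the muscle-rich spots, day 4 was set against unwounded mucosa: 0 of 32 measured members were called higher and 5 lower, where 3.81% of all genes were higher and 4.25% lower. Aldoa was at 5542 against 5541 CPM at day 4 against unwounded, Pgam2 at 1667 against 1689 CPM and Eno3 at 2696 against 2334 CPM. The 5 lower genes were Pdk4 at 14.2 against 75.9 CPM (log2 -2.42), Ppp1r3c at 54.6 against 139 CPM (-1.35), Pgam1 at 25.3 against 53.1 CPM (-1.07), Bnip3 at 74.8 against 142 CPM (-0.92) and Hk2 at 82.9 against 124 CPM (-0.59). Pfkm, whose wound call over the whole section was kept in every alternative, was not called in these spots. Scaled to the muscle marker UMIs of the section instead of all its UMIs, Ppp1r3c was lower at day 4 by 1.71 on the log2 scale (-2.01 to -1.42), Pdk4 by 1.02 and Pfkm by 0.93 (-1.03 to -0.84). On that scale Eno3 was lower by 0.39 and Fbp2 by 0.14 (-0.53 to 0.24). Pgam2 and Aldoa, near level in the muscle-rich spots, had log2 ratios of -0.57 and -0.34 on it, and Pygm -0.58, so the 2 scalings differ. The part of the regenerating muscle markers in these values was not tested.

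In the muscle-poor spots, the muscle isoforms took 38.2% of the 4 families in unwounded mucosa and 14.6% at day 4, against 3.99% and 4.72% in skin. Muscle markers still took 0.583% and 0.326% of UMIs in those mucosa spots and 0.0299% and 0.0319% in the skin spots. In the 7 and 42 intermediate spots of skin the muscle isoforms took 89.1% and 81.4%, so the muscle form was also the main one in the few skin spots with muscle markers. Day 4 against unwounded mucosa then gave 5 of 35 measured members higher and 5 lower, against 16.2% and 5.14% of all genes. The higher ones were Hif1a (331 against 88.2 CPM, log2 1.91), Slc16a3 (30.3 against 8.94 CPM, 1.76), Pfkfb3 (22.9 against 8.34 CPM, 1.45), Slc16a1 (58.5 against 32.2 CPM, 0.86) and Gapdh (990.4 against 598 CPM, 0.73). The lower ones were the muscle isoforms Pfkm, Pgam2, Eno3 and Pygm and the glycogen subunit gene Ppp1r3c, by 1.28 to 2.09 on the log2 scale. Of the 5 higher genes, 4 were not called over the whole section. Neutrophil markers took 0.742% of UMIs in the muscle-poor spots of day 4 mucosa and 0.00542% in those of unwounded mucosa.

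Between the tissues, muscle-poor spots of unwounded mucosa had 9 of 36 members higher and 10 lower than those of unwounded skin, against 6.92% and 34.1% of all genes, and at day 4 12 were higher and 6 lower, against 10.8% and 15.9%. Hif1a was called lower in unwounded mucosa and higher in day 4 mucosa (331 against 152 CPM). Hk2, Pfkp, Ldhb and Bnip3 were lower in mucosa at both times in these spots, so the higher Hk2, Ldhb and Bnip3 of the whole unwounded mucosa section was not present in its muscle-poor spots. In skin, the muscle-poor spots kept the wound calls of the whole sections and added Gys1 as lower, with 1 of 35 members higher and 4 lower against 5.70% and 8.99% of all genes.

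Muscle-poor spots were then ranked by marker lists of other cell types, and the 20% of spots with the highest share of a list were set beside the rest. Only the members were called between such spots. The share of all genes called was not counted for any list, so calls and overlaps between sections have no background here. Spots called neutrophil-rich were ranked mostly by S100a8 and S100a9, which gave most UMIs of that list. A spot covers several cells, and which cells held S100a8, S100a9 or the members in these spots was not tested. In unwounded skin, the neutrophil-rich spots (130 against 516 spots, median 11194 against 17404.5 UMIs) had Slc2a3 at 79.7 against 14.8 CPM (log2 2.43, 2.10 to 2.76), Slc16a3 at 123 against 31.9 CPM (log2 1.95, 1.71 to 2.19) and Egln3 at 352 against 107 CPM (log2 1.71, 1.58 to 1.85). Bnip3, Ankrd37, Eno1 and Ndrg1 were higher there too, by 1.11 to 1.59 on the log2 scale, and Ldhb was lower (37.1 against 102 CPM, log2 -1.46, -1.80 to -1.13). In day 4 mucosa the neutrophil-rich spots (41 against 164 spots) had Slc16a3 at 77.9 against 20.3 CPM (log2 1.94, 1.01 to 2.85), Bnip3 at 77.9 against 26.0 CPM (log2 1.58, 0.70 to 2.43) and Hif1a at 619 against 271 CPM (log2 1.19, 0.91 to 1.47). Slc16a3, Bnip3, Eno1, Slc2a1 and Gapdh were called higher in the neutrophil-rich spots of both sections, while Egln3 was lower there in day 4 mucosa (35.0 against 93.5 CPM, log2 -1.42, -2.58 to -0.44). Slc2a3 had 6 and 4 UMIs in the classes of day 4 mucosa, too few to measure. In day 4 skin, where neutrophil markers were sparse, the top 20% still had Slc2a3 at 14.7 against 5.56 CPM (log2 1.40, 0.61 to 2.16) and Slc16a3 at 31.4 against 13.5 CPM (log2 1.22, 0.70 to 1.72).

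Epithelial layers differed in Egln3 and Eno1. Egln3 was high in spots rich in suprabasal keratins: 315 against 112 CPM in unwounded skin, 257 against 78.7 CPM (log2 1.71, 1.55 to 1.87) in day 4 skin and, for the oral keratins, 161 against 22.7 CPM (log2 2.82, 2.11 to 3.61) in day 4 mucosa. Those oral suprabasal spots were low in Hif1a (90.5 against 518 CPM, log2 -2.52, -2.94 to -2.12) and in Slc16a3 (3.07 against 51.5 CPM, log2 -4.07, -7.16 to -2.13). Egln3 and Hif1a itself were thus high in different spots of day 4 mucosa. Eno1 was high in spots rich in basal keratinocyte markers of all 4 sections, with 171 against 62.7 CPM (log2 1.44, 1.26 to 1.63) in day 4 skin and 246 against 105 CPM (log2 1.23, 0.83 to 1.63) in day 4 mucosa. Slc2a1 was high in the basal spots of the same 2 sections as well, at 183 against 69.9 CPM in day 4 skin and 191 against 88.4 CPM in day 4 mucosa.

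Spots rich in stromal and gland markers showed further members. Hif1a was high in macrophage-rich spots, with 845 against 264 CPM (log2 1.68, 1.39 to 1.96) in day 4 mucosa and 309 against 134 CPM (log2 1.21, 1.02 to 1.39) in day 4 skin, and was called in neither unwounded section. Adm was high in fibroblast-rich spots of skin, at 32.0 against 6.65 CPM (log2 2.27, 1.76 to 2.78) unwounded and 59.1 against 2.76 CPM (log2 4.42, 3.71 to 5.17) at day 4, and in macrophage-rich spots as well (34.6 against 7.03 CPM and 47.8 against 3.92 CPM). The lists overlap in the spots they pick, so a spot can be rich in both. Ldhb was high in sebaceous spots of skin, at 228 against 53.2 CPM (log2 2.10, 1.92 to 2.28) unwounded and 284 against 41.1 CPM (log2 2.79) at day 4, and its rank correlation with the sebaceous share was 0.56 over 653 spots and 0.40 over 1096 spots. In adipocyte-rich spots of day 4 skin, Ppp1r3c was at 27.7 against 2.71 CPM (log2 3.36, 2.45 to 4.25) and Slc2a4 at 17.6 against 2.71 CPM (log2 2.70, 1.64 to 3.71). Both genes, highest in the mucosa sections as a whole, were thus unevenly spread within skin.

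**Figure D5:**
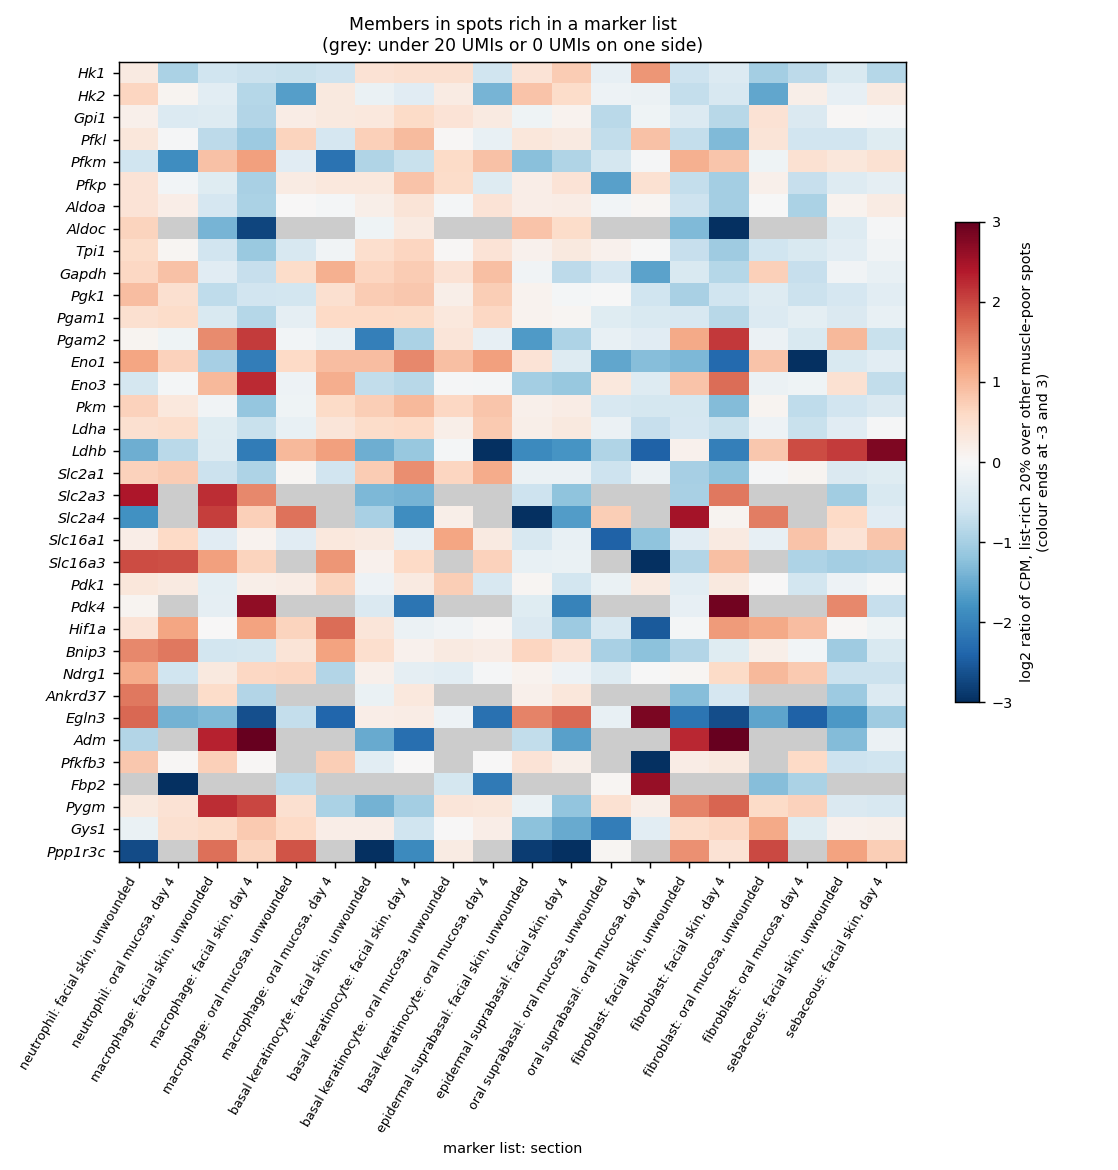
Log2 ratio of CPM between the 20% of muscle-poor spots richest in a marker list and the other muscle-poor spots, for each member (rows) and each list and section (columns), with colours ending at -3 and 3 and grey where too few UMIs were counted. Slc2a3 and Slc16a3 stand at 2.43 and 1.95 in the neutrophil column of unwounded skin, and Egln3 at 2.82 in the oral suprabasal column of day 4 mucosa.

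A companion list of 52 other genes of the same pathways was counted in the same way. In the skin wound comparison 4 of 47 measured genes were higher and 5 lower, near the 6.09% and 8.59% of all genes, with Car9, a carbonic anhydrase induced by hypoxia, at 1.31 against 4.27 CPM (log2 -1.71) and Ero1l, an oxidase of the endoplasmic reticulum, at 45.3 against 95.1 CPM (-1.07). Hk3, the hexokinase of white blood cells, was at 2.32 against 4.86 CPM (-1.07), and Pygb, the brain-type glycogen phosphorylase, was higher, at 96.8 against 48.9 CPM (0.99). For 3 of these 4 genes the section labelled unwounded skin, richer in neutrophil markers, was the higher one. In the mucosa wound comparison 8 of 44 were higher and 7 lower, against 20.6% and 3.56% of all genes. The largest ratios were those of Ppp1r3b, a glycogen targeting subunit abundant in liver (4.66 against 0.824 CPM, log2 2.50), Slc16a7, a pyruvate and lactate transporter (5.99 against 1.37 CPM, 2.13), Pygl, the liver-type phosphorylase (9.32 against 2.47 CPM, 1.92), and Pgm2, a phosphoglucomutase (15.3 against 5.63 CPM, 1.44). Ppp1r3b and Pygl were thus called higher in day 4 mucosa, the section in which Ppp1r3c and Pygm were lower. The levels of Ppp1r3b and Pygl were low in both sections and rest on few UMIs, and 20.6% of all genes were called higher there.

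Between the unwounded tissues 17 of 48 companion genes were higher in mucosa and 21 lower, against 10.1% and 59.7% of all genes, and between the day 4 tissues 13 of 47 were higher and 11 lower, against 11.5% and 35.5%. The same 4 genes led both. Ppp1r3a, the muscle glycogen targeting subunit, was at 35.7 CPM in unwounded mucosa and 0.251 in unwounded skin (260 against 3 UMIs; log2 7.15, 5.59 to 9.44), and at 14.3 against 0.604 CPM at day 4. Phkg1, the muscle phosphorylase kinase subunit, was at 52.0 against 1.59 CPM and 37.6 against 1.41 CPM. Pdk2, a widely expressed pyruvate dehydrogenase kinase, was at 145 against 6.62 CPM and 84.9 against 10.4 CPM, and Gyg, glycogenin, which primes glycogen, at 159 against 10.1 CPM and 117 against 15.2 CPM. Of the 4, Ppp1r3a and Pdk2 were also called lower in day 4 than in unwounded mucosa, as Pygm and Gys1 were, and Phkg1 and Gyg were not called there.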

How the data were processed

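The authors deposited raw UMI counts per gene and spot. Per the file headers these came from Space Ranger 1.3.1. Seurat and the mm10 genome are also named in the submitters' processing notes, while no aligner or annotation release is named in the sources used here. An array has 4992 spots, the matrices keep those over tissue, and the section values use all of these. Counts were summed over the spots of each of the 4 sections and scaled to a total of 1000000 (CPM). Poisson, conditional ratio and binomial intervals at 95% were exact (numpy 2.4.6, scipy 1.17.1, pandas 2.3.3), with a floor of 3 UMIs; PCR and capture are not covered by them. The section totals of 3004174 to 11939479 UMIs set the precision. TMM factors came from edgeR 4.0.16, with no count model fitted, and plots from matplotlib 3.10.9.

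All 36 members are accounted for, and of the companion list at most 4 called genes per comparison are named, largest absolute log2 ratio first. The members and lists were chosen with earlier results of these data known. Alternatives covered the scaling, the spots used, the UMI minimum, the fold limit and leaving out each of 4 parts of a section. Scaling to muscle marker UMIs, adding Eno1b to Eno1 and a muscle-poor limit of 0.5% were chosen after seeing the data. Tissue images and other time points were not analysed here.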

Additional observations from a re-analysis of the deposited data

Results flagged for a closer look

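The wound ratio of Slc2a3 differed most between the tissues. The log2 ratio of day 4 over unwounded was -1.92 in facial skin and 2.18 in oral mucosa, so the ratios had opposite signs and lay 4.10 apart (2.81 to 5.40, counting error only). With 1 section per group this difference was not tested against the spread between animals. The 4 levels behind it came from 318, 70, 8 and 15 UMIs in unwounded skin, day 4 skin, unwounded mucosa and day 4 mucosa, and the neutrophil marker share of the same sections was 0.618%, 0.0296%, 0.00409% and 0.384%.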

How the results depend on the processing

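No paired analysis was possible because each group has 1 section. A muscle-rich limit of at least 20% gave no value, as no spot reached it. The share of all genes called was not counted under the alternatives, so the member counts in this section have no background. In the skin wound comparison (1 higher, 3 lower) the mean over spots gave 7 higher and 10 lower, spots under 0.5% neutrophil markers 3 higher, and a 2-fold limit 0 higher. In the mucosa wound comparison (4 and 12) TMM gave 2 higher, the mean over spots 7 higher, spots under 1% muscle markers 5 lower, spots under 0.5% neutrophil markers 1 higher and 5 lower, and the 2-fold limit 2 higher and 3 lower. Between unwounded tissues (16 and 13) TMM gave 5 lower, a total without mitochondrial and the 50 most abundant genes 8 lower, spots under 1% muscle markers 9 higher, and the 2-fold limit 8 lower. Between day 4 tissues (14 and 7) TMM, that total and the 2-fold limit gave 3 lower each and the mean over spots 4 lower.

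Among called members, in spots under 1% muscle markers the sign turned for Hk2 (log2 0.0098), Ldhb (0.45) and Bnip3 (0.45) in the mucosa wound comparison. Between unwounded tissues it turned for Hk1 (0.23), Hk2 (-1.02), Pfkl (0.036), Tpi1 (-0.12), Ldhb (-1.92) and Bnip3 (-1.31), and between day 4 tissues for Hk1 (0.029), Tpi1 (-0.12) and Slc2a1 (0.015). TMM turned Egln3 between unwounded tissues (0.11), and leaving out each part of a section put Eno1 at -0.079 to 1.49 in the mucosa wound comparison. The cause of these changes was not tested. The muscle isoform share over spots under 1% muscle markers was 3.99%, 4.75%, 38.9% and 14.7% in the order of the text, and over spots under 0.5% neutrophil markers 10.9% in unwounded skin and 88.1% in day 4 mucosa. Leaving out each part in turn gave 1 to 6 higher and 4 to 9 lower (skin wound), 1 to 7 and 7 to 14 (mucosa wound), 12 to 16 and 11 to 13 (unwounded tissues) and 12 to 15 and 4 to 11 (day 4 tissues), and shares of 3.76% to 11.9%, 5.35% to 12.0%, 86.8% to 94.2% and 42.5% to 91.0%. Without part 1 or part 2 of unwounded mucosa, which held very few UMIs, the counts stayed at 4 and 12 and at 16 and 13. Without part 4 of day 4 mucosa they stayed at 4 and 12 and at 14 and 7. Depth limits Slc2a3 and Fbp2 most, with 8 and 7 UMIs in their lowest sections.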
